A study of Homo sapiens with 3 samples.

Results

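The genes of the proteasome were read on 3 expression arrays of LNCaP cells, from 2 knockdowns of the long non-coding RNA HOXD-AS1 and a control. Members were the genes whose single annotated symbol was PSM followed by a letter from A to G and a number, or POMP, whatever their values. The rule found 111 of 49388 probe sets, which stood for 45 of the 18131 genes with a single-symbol probe set. Of these 45 genes, 42 were measured, meaning that the probe set used for the gene was above a floor of 26.0 intensity units on at least 1 array. PSMA8, PSMB8 and PSMB11 were at or below the floor on all 3 arrays. PSMA6, PSMC5, PSMD7 and PSMD13 were not analysed here.

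LNCaP is an established human prostate cancer line that responds to androgen. The groups were HOXD-AS1 siRNA 1, HOXD-AS1 siRNA 2 and a control siRNA, each given at 75 nM, with RNA taken at 48 h and 1 array per group. HOXD-AS1 itself was not analysed here, so the knockdown is taken from the labels, and these are not of one kind: a further label field places the target points of both siRNAs, 588 and 1290, on the coding sequence of WDR5, a subunit of histone methyltransferase complexes. The brighter WDR5 probe set read 351.1 with siRNA 1 and 407 with siRNA 2, against 445 in the control, log2 differences of -0.34 and -0.13, and the dimmer one differed by -0.14 and -0.17. All cells were grown in phenol red-free medium with serum. The source labels named LNCaP-Bic for siRNA 1, LNCaP-AI for siRNA 2 and LNCaP for the control, while the cell line label was LNCaP throughout, so a difference between cells of these names and a difference between siRNAs cannot be told apart. No difference below has a replicate check, and no test was possible; values are intensities and differences of log2 intensity, siRNA minus control unless stated. The siRNA 1 and siRNA 2 differences share the control array, so they are given side by side and are not independent of each other. In RNA from a whole culture, less RNA per cell and fewer cells that carry it cannot be told apart.

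The proteasome is the cell's main machine for breaking down proteins marked with ubiquitin. Its barrel-shaped core, the 20S particle, stacks outer rings of alpha subunits, which gate entry, on inner rings of beta subunits, of which PSMB5, PSMB6 and PSMB7 cut the protein chain. The 19S regulatory particle sits on the barrel, where its base unfolds substrates with ATPases and its lid removes ubiquitin. Interferon induces PSMB8, PSMB9 and PSMB10, which replace the cutting subunits in the immunoproteasome and favour peptides for MHC class I, as well as the cap proteins PSME1 and PSME2. Core particles are built with the help of the chaperones PSMG1 to PSMG4 and POMP. In many human cells the transcription factor NFE2L1 raises proteasome genes when proteasome activity falls short.

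The promoters of members that differed 1.5-fold or more in any comparison and had a RefSeq promoter entry, and of PSME2, the partner of PSME1, are printed because the results below turn on these genes. Each window runs from 250 bases before to 50 bases after the gene's start on its own strand, 5′ to 3′, in build GRCh38.p14. Capitals mark letters that matched a searched motif on either strand: the core of the antioxidant response element, TGACNNNGC, which NFE2L1 and NFE2L2 bind; the core of the interferon-stimulated response element, which is GAAA, any 2 bases and GAAA again; the gamma-activated site, TTCNNNGAA; and the CCAAT box, CCAAT.
PSMB3, chr17:38752491-38752790, plus strand: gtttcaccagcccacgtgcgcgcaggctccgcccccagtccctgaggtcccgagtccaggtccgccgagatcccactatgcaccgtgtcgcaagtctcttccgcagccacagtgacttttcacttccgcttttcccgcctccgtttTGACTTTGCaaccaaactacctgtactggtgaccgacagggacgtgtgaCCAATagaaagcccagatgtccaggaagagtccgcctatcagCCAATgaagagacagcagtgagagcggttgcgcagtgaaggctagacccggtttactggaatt
PSMB9, chr6:32853942-32854241, plus strand: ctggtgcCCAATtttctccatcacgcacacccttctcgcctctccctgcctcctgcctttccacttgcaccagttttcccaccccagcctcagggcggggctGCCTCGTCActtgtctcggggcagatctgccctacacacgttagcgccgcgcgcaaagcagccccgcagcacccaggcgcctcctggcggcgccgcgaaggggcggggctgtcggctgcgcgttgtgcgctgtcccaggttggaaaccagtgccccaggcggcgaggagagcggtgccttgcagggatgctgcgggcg
PSMB10, chr16:67936801-67937100, minus strand: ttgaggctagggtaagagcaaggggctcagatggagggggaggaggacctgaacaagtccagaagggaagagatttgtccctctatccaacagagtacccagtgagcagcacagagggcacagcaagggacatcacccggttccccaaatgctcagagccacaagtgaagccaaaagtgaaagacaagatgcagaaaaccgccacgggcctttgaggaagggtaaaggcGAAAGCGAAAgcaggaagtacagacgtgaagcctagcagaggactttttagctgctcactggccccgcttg
PSMG1, chr21:39183402-39183701, minus strand: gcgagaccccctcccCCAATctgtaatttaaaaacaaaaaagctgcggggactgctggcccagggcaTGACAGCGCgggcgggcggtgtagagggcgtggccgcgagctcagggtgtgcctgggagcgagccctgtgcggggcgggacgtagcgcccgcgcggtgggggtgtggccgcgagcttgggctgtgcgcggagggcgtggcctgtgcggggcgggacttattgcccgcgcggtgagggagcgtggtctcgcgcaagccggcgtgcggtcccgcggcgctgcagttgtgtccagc
PSMG4, chr6:3258697-3258996, plus strand: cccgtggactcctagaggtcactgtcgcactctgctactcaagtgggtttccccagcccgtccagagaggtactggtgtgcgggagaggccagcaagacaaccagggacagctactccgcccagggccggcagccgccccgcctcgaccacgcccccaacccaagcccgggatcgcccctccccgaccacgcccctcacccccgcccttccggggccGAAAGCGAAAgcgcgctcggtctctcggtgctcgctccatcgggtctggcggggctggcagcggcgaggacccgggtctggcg
PSME1, chr14:24135944-24136243, plus strand: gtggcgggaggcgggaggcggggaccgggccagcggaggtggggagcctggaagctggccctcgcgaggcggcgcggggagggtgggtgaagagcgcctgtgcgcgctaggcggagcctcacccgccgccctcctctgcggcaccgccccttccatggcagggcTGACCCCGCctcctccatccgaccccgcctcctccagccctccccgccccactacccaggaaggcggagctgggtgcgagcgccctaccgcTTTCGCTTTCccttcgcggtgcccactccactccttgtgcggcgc
PSME2, chr14:24146561-24146860, minus strand: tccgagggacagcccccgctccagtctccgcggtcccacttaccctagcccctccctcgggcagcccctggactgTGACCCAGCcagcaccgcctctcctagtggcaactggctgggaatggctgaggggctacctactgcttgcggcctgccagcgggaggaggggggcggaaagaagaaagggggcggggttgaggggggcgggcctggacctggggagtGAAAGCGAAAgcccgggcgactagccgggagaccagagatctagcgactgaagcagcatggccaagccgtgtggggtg

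The interferon-type core was found in the windows of PSMB10, PSMG4, PSME1 and PSME2 and not in that of PSMB9. Counted from the gene's start, it began at base -33 in PSMG4, -28 in PSME2, -21 in PSMB10 and 6 in PSME1. The antioxidant-type core was found in the windows of PSMB3, PSMB9, PSMG1, PSME1 and PSME2. The promoter entries used here gave a window for 39 of the 45 members. They had none for PSMA7, PSMB1, PSMB6, PSMB7, PSMD4 and PSMG3, so PSMG3 is not printed although it differed 1.5-fold. Among the 39, 13 (33.3%) held the antioxidant-type core, against 13.6% of the 27305 promoters of the same length. The interferon-type core was in 6 (15.4%), against 3.65% of all promoters, the gamma-activated site in 5 (12.8%), against 7.88%, and the CCAAT box in 17 (43.6%), against 35.7%. A match describes these letters and does not show that a factor binds there. Windows of genes within 1.2-fold of the control held matches too: PSMD1, PSMC4 and PSMD9 held the antioxidant-type core, and PSMA4 and PSMB4 the interferon-type core.

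Most proteasome genes were slightly lower with either siRNA than with the control, and few differed by much. With siRNA 1, 36 of the 42 measured genes were lower and 6 higher than the control, where 48.0% of all 11286 measured genes were lower and 50.3% higher. With siRNA 2, 33 were lower and 9 higher, where 46.9% of all measured genes were lower and 51.7% higher. The median log2 difference of the 42 genes was -0.20 with siRNA 1 and -0.12 with siRNA 2, beside 0.00 and 0.01 for all measured genes. The middle 50% of the members lay between -0.34 and -0.08 with siRNA 1 and between -0.25 and -0.01 with siRNA 2. For all measured genes these ranges were -0.20 to 0.24 and -0.19 to 0.21.

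**Figure D1:**
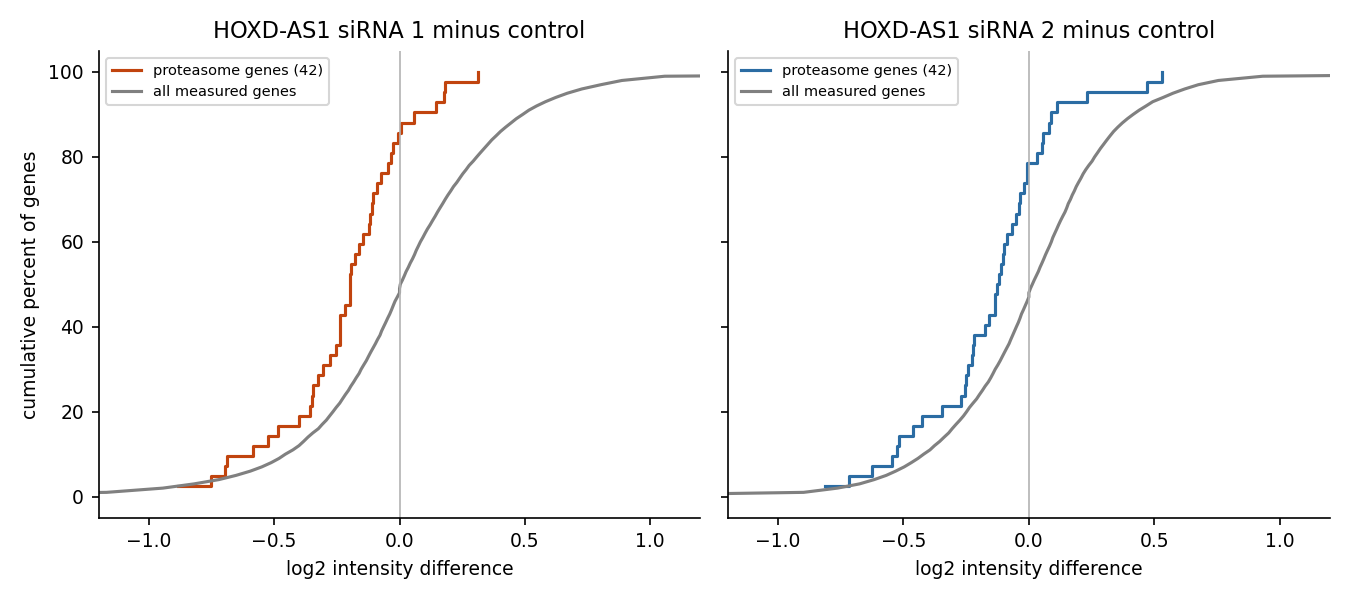
Cumulative percent of genes (y axis) against the log2 intensity difference (x axis) for the 42 measured proteasome genes (coloured steps) and all measured genes (grey line), HOXD-AS1 siRNA 1 minus control on the left and HOXD-AS1 siRNA 2 minus control on the right. The coloured steps lie to the left of the grey line over most of the range, with member medians of -0.20 and -0.12.

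At 1.5-fold, 5 members were lower than the control with siRNA 1, and 0 higher. In all measured genes 6.16% were lower and 6.90% higher by this rule, so that 5 of 42 (11.9%) and 0 stand beside them. With siRNA 2, 3 members (7.14%) were lower by 1.5-fold, against 4.67% of all measured genes, and 0 were higher, against 4.75%. At 2-fold, 0 members were lower or higher in either siRNA library, where 1.76% of all measured genes were lower and 1.36% higher with siRNA 1 and 0.603% lower and 0.789% higher with siRNA 2. At the smaller size of 1.2-fold, 14 members (33.3%) were lower and 1 (2.38%) higher with siRNA 1, against 20.2% and 23.2% of all measured genes. With siRNA 2, 10 (23.8%) were lower and 2 (4.76%) higher by 1.2-fold, against 18.8% and 19.9%. The genes past 1.5-fold were PSMB9, PSMG4, PSMB3, PSMB10 and PSMG3 with siRNA 1, and PSMG1, PSMB9 and PSMB10 with siRNA 2. PSMG3 lay just past the threshold with siRNA 1 (log2 difference -0.59) and PSMG1 just short of it (-0.52). With siRNA 2, PSMB10 was the nearest past it (-0.63) and PSMG4 the nearest short of it (-0.55).

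**Figure D2:**
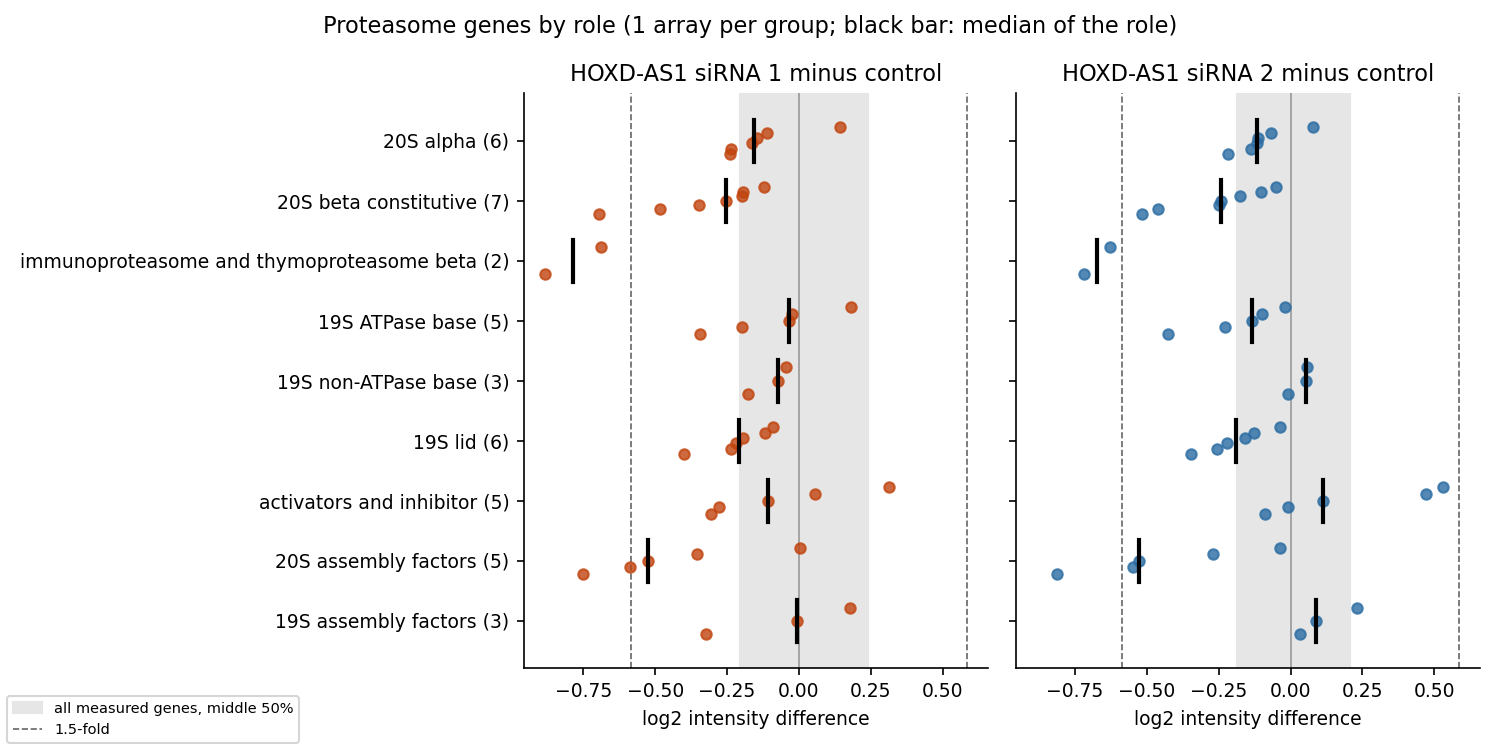
Log2 intensity difference (x axis) of each measured proteasome gene (points), by role (rows, with the number of measured genes), for HOXD-AS1 siRNA 1 minus control on the left and HOXD-AS1 siRNA 2 minus control on the right. Black bars are role medians, the grey band the middle 50% of all measured genes and dashed lines 1.5-fold; the immunoproteasome subunits and the 20S assembly factors lie farthest to the left, with medians from -0.79 to -0.52.

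The alpha subunits, which form the gated outer rings of the core, were close to the control. Of 6 measured, 5 were lower and 1 higher in each comparison, with medians of -0.15 with siRNA 1 and -0.12 with siRNA 2. PSMA5 read 2460.0 with siRNA 1 and 2495 with siRNA 2, against 2900.1 in the control, log2 differences of -0.24 and -0.22. PSMA3 read 2106 and 2370.2 with siRNA 1 and siRNA 2, against 2485 in the control, so that only the siRNA 1 value was lower by more than 1.1-fold. The exception in direction was PSMA4, at 3569 and 3414 with siRNA 1 and siRNA 2, against 3230.2 in the control (0.14 and 0.08). Differences of the remaining PSMA1, PSMA2 and PSMA7 lay between -0.16 and -0.11 with siRNA 1 and between -0.14 and -0.11 with siRNA 2. PSMA8, an alpha subunit of germ cells, was at most 8.54 on any array, below the floor.

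All 7 constitutive beta subunits, the inner rings of the core, were lower than the control with siRNA 1 and with siRNA 2, with medians of -0.25 and -0.24. Their sizes differed. PSMB3, a structural subunit, read 1833 with siRNA 1 and 2072 with siRNA 2, against 2967 in the control, which is 1.62-fold and 1.43-fold lower. PSMB2, also structural, read 1598 with siRNA 1 and 1625 with siRNA 2, against 2236 in the control (-0.48 and -0.46). PSMB3 and PSMB2 thus had the largest differences of the constitutive rings, and in each the control array was the highest. Among the cutting subunits, PSMB5, which has the chymotrypsin-like activity, read 1819.9 and 1823 with siRNA 1 and siRNA 2, against 2168 in the control, 1.19-fold lower in each. PSMB7, with the trypsin-like activity, read 1902 and 2048, against 2420.4 in the control (-0.35 and -0.24). PSMB6, with the caspase-like activity, read 1639.6 and 1753, against 1881 in the control (-0.20 and -0.10). The smallest difference was that of PSMB1, at 5933 and 6224 against 6451 in the control (-0.12 and -0.05), while PSMB4 differed by -0.19 and -0.18.

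PSMB9 and PSMB10 were farther below the control than the constitutive subunits that they replace. PSMB9, the counterpart of PSMB6, read 38.0 with siRNA 1 and 42.7 with siRNA 2, against 70.2 in the control, 1.84-fold and 1.64-fold lower. Only 2.46% of all measured genes had a lower difference with siRNA 1, and 2.45% with siRNA 2, but all 3 intensities were within 3-fold of the floor and the dimmest of its probe sets gave -0.25 and -0.07. PSMB10, the counterpart of PSMB7, read 247 with siRNA 1 and 257 with siRNA 2, against 398 in the control, 1.61-fold and 1.54-fold lower. Taken as a difference of log2 differences, PSMB9 minus PSMB6 was -0.68 with siRNA 1 and -0.62 with siRNA 2, and PSMB10 minus PSMB7 was -0.34 and -0.39. PSMB8, the counterpart of PSMB5, read 11.2 and 11.98 with siRNA 1 and siRNA 2, against 14.4 in the control, all below the floor, so no fold is given. PSMB11, a subunit of thymus epithelium, was also below the floor, at 5.77 or less.

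**Figure D3:**
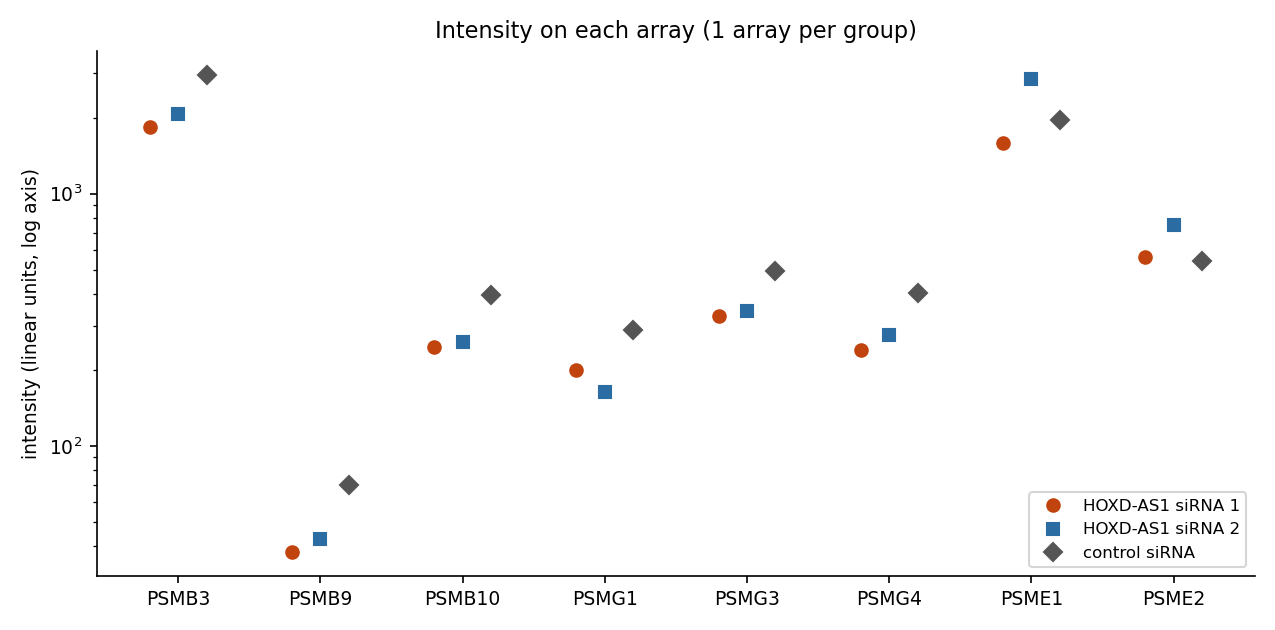
Intensity (y axis, log scale) on each of the 3 arrays for the 6 members at least 1.5-fold from the control in a siRNA library and for PSME1 and PSME2, with HOXD-AS1 siRNA 1 (circles), HOXD-AS1 siRNA 2 (squares) and control siRNA (diamonds). The control is the highest array for PSMB3, PSMB9, PSMB10, PSMG1, PSMG3 and PSMG4, whereas siRNA 2 is the highest for PSME1 and PSME2.

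On chromosome 6 the RefSeq order of genes is TAP2, PSMB8, TAP1 and PSMB9, all within the MHC region. TAP1 and TAP2 encode the transporter that carries proteasome-made peptides to MHC class I. TAP2 read 110.4 with siRNA 1 and 133 with siRNA 2, against 196 in the control, log2 differences of -0.83 and -0.57, close to those of PSMB9 (-0.88 and -0.72). TAP1, which lies between PSMB8 and PSMB9, read 344 and 322 with siRNA 1 and siRNA 2, against 291 in the control (0.24 and 0.15). A second TAP1 probe set gave 0.10 and -0.18. The 3 further TAP2 probe sets lay between -0.94 and -0.77 for siRNA 1 and between -0.67 and -0.53 for siRNA 2. Neighbours in this stretch therefore read in different directions with siRNA 1.

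In the 19S particle, the ATPases of the base unfold substrates. Their differences ran from -0.35 to 0.18 with siRNA 1 and from -0.43 to -0.02 with siRNA 2. PSMC3 read 778 with siRNA 1 and 901 with siRNA 2, against 989 in the control (-0.35 and -0.13). PSMC2, which had the lowest siRNA 2 difference of the ATPases, read 742 and 634, against 852 in the control (-0.20 and -0.43), while a dimmer probe set gave 0.23 and -0.25. PSMC6 was above the control with siRNA 1 and below it with siRNA 2, at 1626 and 1225, against 1434 in the control (0.18 and -0.23). PSMC1, at 1095 and 1098 against 1114 in the control, was within 1.02-fold, and PSMC4 differed by -0.03 and -0.10. The 5 ATPases had medians of -0.03 with siRNA 1 and -0.13 with siRNA 2.

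The other base subunits, the scaffolds PSMD1 and PSMD2 and the ubiquitin receptor PSMD4, had differences between -0.18 and 0.06. PSMD1 read 1381 with siRNA 1 and 1626 with siRNA 2, against 1562 in the control (-0.18 and 0.06). PSMD2 read 1907 and 2045, against 1969 in the control, and PSMD4 read 1157 and 1212, against 1218 in the control. Their medians were -0.07 with siRNA 1 and 0.05 with siRNA 2.

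All 6 measured lid genes were lower than the control with siRNA 1 and with siRNA 2, with medians of -0.21 and -0.19, close to those of the constitutive beta subunits. PSMD12, a lid scaffold, read 752 with siRNA 1 and 832 with siRNA 2, against 992 in the control (-0.40 and -0.25). Another PSMD12 probe set went the other way, at 568 and 416 against 406 in the control (0.49 and 0.04). With the mean of all its probe sets PSMD12 differed by -0.16 and -0.12. PSMD14, the enzyme that cuts ubiquitin chains off substrates, read 1408 and 1177, against 1497 in the control (-0.09 and -0.35). PSMD11 was nearly level, at 733 and 774 against 795 in the control, although its other probe set above the floor differed by -0.18 and -0.48. The lid subunits PSMD3, PSMD6 and PSMD8 lay between -0.24 and -0.20 for siRNA 1 and between -0.22 and -0.13 for siRNA 2. The dimmest PSMD8 probe set gave 0.02 and -0.18.

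Among the caps that open the core without the 19S particle, PSME1 lay on opposite sides of the control with the siRNAs. PSME1, an interferon-induced subunit of the 11S cap, read 1591 with siRNA 1 and 2843 with siRNA 2, against 1967 in the control, log2 differences of -0.31 and 0.53. Its partner PSME2 read 564 with siRNA 1 and 750.5 with siRNA 2, against 542 in the control (0.06 and 0.47). The siRNA 2 array thus stood above the other two for the pair, which lie on chromosome 14 with EMC9 between them. With siRNA 2, 93.9% of all measured genes had a lower difference than PSME1 and 92.1% a lower one than PSME2. PSME3, which forms a separate nuclear cap, read 234 and 250.2 with siRNA 1 and siRNA 2, against 252 in the control (-0.11 and -0.01). PSME4, a large activator that acts on acetylated histones in male germ cells of mice, read 611 and 532, against 492 in the control (0.31 and 0.11), the highest siRNA 1 difference of any member. PSMF1, named as an inhibitor of the core, read 350.7 and 399.8, against 425 in the control (-0.28 and -0.09).

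The assembly factors of the core had low medians, -0.52 with siRNA 1 and -0.53 with siRNA 2 over 5 genes. The probe set used for POMP was level with the control. The 2 immunoproteasome genes had lower medians, but without a floor, which brings in PSMB8 and PSMB11, theirs were -0.52 and -0.44, so the order of these roles is not settled. PSMG1 and PSMG2 act as a pair, and PSMG3 and PSMG4 as another, in building the alpha ring. PSMG1 read 200.2 with siRNA 1 and 164 with siRNA 2, against 288 in the control, 1.44-fold and 1.76-fold lower. PSMG4 read 239 with siRNA 1 and 275 with siRNA 2, against 403 in the control, 1.68-fold and 1.46-fold lower. Its partner PSMG3 read 328 and 341, against 492 in the control, log2 differences of -0.59 and -0.53. For these 3 genes each siRNA array lay below the control array, although PSMG1 was higher with siRNA 1 than with siRNA 2, by 0.29. PSMG2 differed by -0.36 and -0.27. POMP guides the beta ring and is the first substrate of the finished core. By its brightest probe set it was within 1.03-fold of the control, at 3976 with siRNA 1 and 3868 with siRNA 2, against 3963. A dimmer POMP probe set, at 857 and 701 against 833 in the control, gave 0.04 and -0.25. The dimmest gave 0.20 and 0.06.

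The assembly factors of the 19S base had medians near 0. PSMD5 read 105 with siRNA 1 and 134 with siRNA 2, against 131 in the control (-0.32 and 0.03). PSMD9 read 791 and 933, against 794 in the control (-0.01 and 0.23). PSMD10, also known as the oncoprotein gankyrin, read 750.1 and 705, against 663 in the control (0.18 and 0.09), while its other probe set went the other way, by -0.08 and -0.23. The medians of the 3 genes were -0.01 with siRNA 1 and 0.09 with siRNA 2.

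Set directly against each other, the siRNA libraries were close for most members. The median difference, siRNA 1 minus siRNA 2, was -0.07 over the 42 genes and -0.02 over all measured genes, with 31 members lower and 11 higher in siRNA 1, where 53.1% of all measured genes were lower and 45.7% higher. At 1.5-fold only PSME1 was lower with siRNA 1, at -0.84, where 4.87% of all measured genes were lower by this rule, and 0 members were higher, where 6.52% were. At 1.2-fold, 3 members were lower and 2 higher, beside 20.6% and 19.6% of all measured genes, and at 2-fold 0 were lower or higher, beside 0.656% and 1.56%. For PSME1, 1.46% of all measured genes had a lower value in this comparison. PSME2 followed at -0.41 and PSMD5 at -0.36, while PSMC6 was the highest at 0.41. The constitutive core subunits lay between -0.18 and 0.06.

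Most members had further probe sets, whose spread is not replicate error. Of the 111 probe sets, 95 carry a suffix with which the array's maker marks sets that can share probes or match further transcripts, and whether other transcripts add to their signal was not tested. Of 29 members with at least 2 probe sets above the floor, all probe sets went the same way in 23 with siRNA 1 and in 21 with siRNA 2. The median spread between the lowest and the highest probe set of a gene was 0.20 and 0.18 on the log2 scale. The 2 other PSMB10 probe sets lay between -0.77 and -0.70 for siRNA 1 and between -0.63 and -0.59 for siRNA 2. The 4 others of PSMG4 lay between -0.83 and -0.63 for siRNA 1 and between -0.47 and -0.25 for siRNA 2. The siRNA 2 value of PSME1 was 0.48 to 0.56 in all 3 of its probe sets, and its siRNA 1 value -0.43 to -0.10. All 5 probe sets of PSMB5 were lower, by -0.33 to -0.12 and -0.37 to -0.15. Other genes were less even. The 2 other PSMB9 probe sets gave -1.001 and -0.25 for siRNA 1, and -0.52 and -0.07 for siRNA 2. A PSME3 probe set not used for the gene differed by -0.74 and -0.43. PSMD12 spread most with siRNA 1, from -0.49 to 0.49. PSME4 lay between 0.20 and 0.59 for siRNA 1 and between -0.26 and 0.13 for siRNA 2. PSMG1, PSMG2, PSMG3, PSMB3, PSMB6, PSMA5, PSMA7, PSMC3, PSMD4 and PSME2 had a single probe set each. PSMC6, PSMD5 and PSMD9 had a single one above the floor. The values of all these genes have no such comparison.

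**Figure D4:**
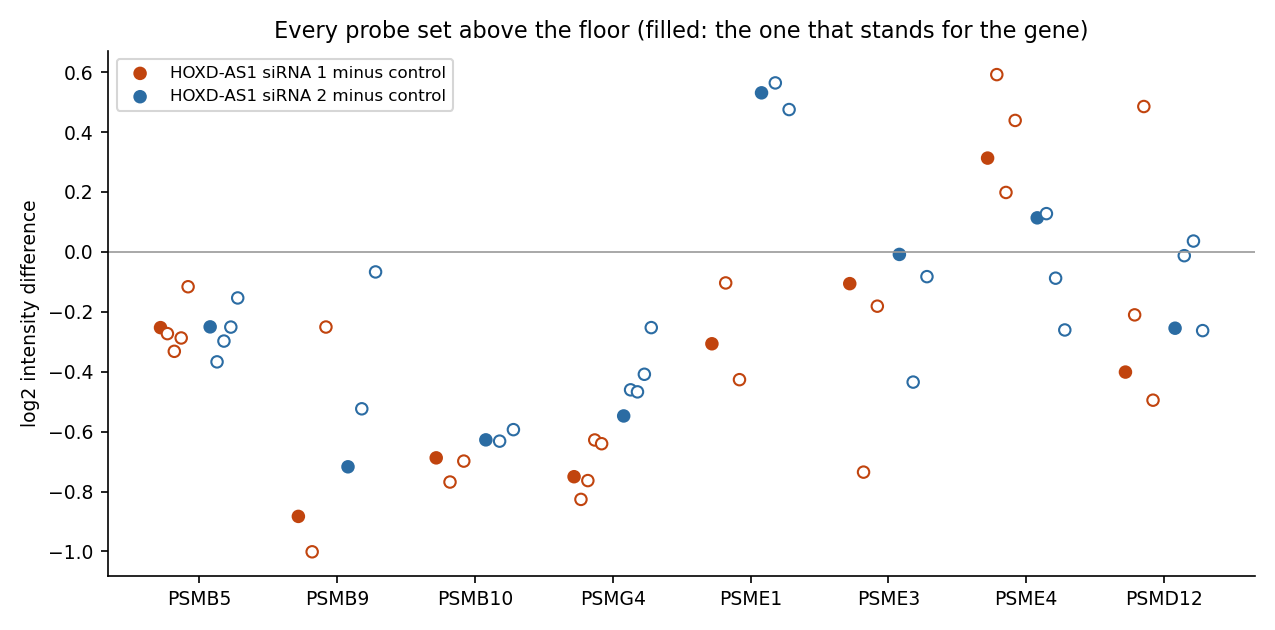
Log2 intensity difference (y axis) of every probe set above the floor for 8 members (x axis), for HOXD-AS1 siRNA 1 minus control and HOXD-AS1 siRNA 2 minus control, with the probe set that stands for the gene filled. The probe sets of PSMB5, PSMB10 and PSMG4 all lie below 0, those of PSME1 lie on either side of 0 by siRNA, and those of PSMD12 with siRNA 1 spread from -0.49 to 0.49.

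Genes that work with the proteasome were counted over fixed lists, beside which the medians of all measured genes were 0.0030 with siRNA 1 and 0.014 with siRNA 2. Of 13 measured proteasome-associated factors, 8 were lower and 5 higher than the control with siRNA 1 and 7 lower and 6 higher with siRNA 2, with medians of -0.09 and -0.01. The deubiquitinase gene UCHL5 was the only one past 1.5-fold, narrowly and with siRNA 1, where 6.16% of all measured genes were lower by this rule. It read 144 with siRNA 1 and 155 with siRNA 2, against 219 in the control (-0.60 and -0.49), and its 2 other probe sets above the floor, both at the floor in the siRNA libraries, gave -0.13 and -0.21 with either siRNA. USP14, the gene of another proteasome-bound deubiquitinase, differed by -0.45 and -0.15, and ADRM1, the ubiquitin receptor that anchors UCHL5, by -0.09 and -0.01. The 6 measured genes of NFE2L1 and NFE2L2 control had medians of -0.07 and -0.10, with 0 past 1.5-fold. NFE2L1 itself read 345 with siRNA 1 and 369.9 with siRNA 2, against 287 in the control, while NFE2L2, the antioxidant regulator, differed by 0.13 and -0.07. Among 12 measured ubiquitin genes, activating enzymes and shuttles, 0 were past 1.5-fold and the medians were -0.02 and 0.08, with the polyubiquitin gene UBB at -0.01 and 0.07.

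Of 11 measured genes of MHC class I presentation, which crosses the immunoproteasome, 7 were higher and 4 lower with siRNA 1, and 6 higher and 5 lower with siRNA 2. By 1.5-fold 2 were higher and 1 lower with siRNA 1, beside 6.90% and 6.16% of all measured genes, and 2 higher and 0 lower with siRNA 2, beside 4.75% and 4.67%. The list medians were 0.14 and 0.03, and the 1 lower gene was TAP2. The interferon regulators IRF9 (1.03 and 1.03) and IRF1 (0.74 and 0.52) and the peptide-loading gene TAPBP (0.14 and 0.73) were the higher ones, IRF1 past 1.5-fold with siRNA 1 alone and TAPBP with siRNA 2 alone. IRF9 and IRF1 were higher in the siRNA libraries in which PSMB9 and PSMB10 were lower. IRF1 was near the floor of 26.0, at 50.4 with siRNA 1 and 43.3 with siRNA 2, against 30.1 in the control. Another IRF1 probe set gave 0.65 and 0.57, with its control value below the floor. The other IRF9 probe sets gave smaller differences, between 0.43 and 0.78 for siRNA 1 and between 0.34 and 0.75 for siRNA 2. The 3 other TAPBP probe sets above the floor were not alike and lay between -0.37 and 0.32 for siRNA 1 and between 0.04 and 0.59 for siRNA 2.

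Markers of the labelled line were present. All 7 luminal markers with a probe set were measured, and they did not move one way. With siRNA 1, 4 were higher and 3 lower, and with siRNA 2, 5 were higher and 2 lower, with medians of 0.27 and 0.15. STEAP2 was past 1.5-fold with siRNA 1 (0.75 and 0.55) and KLK2 with siRNA 2 (-0.10 and -0.68), while KLK3 read 2329 and 1931 with siRNA 1 and siRNA 2, against 2602 in the control. CD44, CAV1 and KRT5, markers of prostate lines of basal or mesenchymal type, were below the floor, while VIM from the same list read 593 and 735, against 660.1 in the control. Of 7 leukocyte markers, whose cells carry much immunoproteasome, 5 were below the floor, among them PTPRC and CD3E, with NKG7 and CD68 above it. NKG7 was close to the floor, at 27.5 or less. CD68 read 69.8 with siRNA 1 and 88.7 with siRNA 2, against 66.2 in the control. The summed intensity of the list was 131 with siRNA 1 and 152 with siRNA 2, against 127 in the control. This sum includes values below the floor and mostly followed CD68. A measure of RNA integrity differed between the groups, more for beta-actin than for GAPDH. The ratio of the 3′ to the 5′ control probe set of beta-actin was 22.8 with siRNA 1 and 24.0 with siRNA 2, against 17.7 in the control, and that of GAPDH was 1.85 and 2.03, against 1.80. The part of this in the differences above was not tested.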

How the data were processed

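Expression was measured in 3 LNCaP samples, 1 array per group. The authors deposited probe set intensity values on a linear scale, 1 column per array; GCOS 1.4 is named, per the submitters' processing notes, and the background correction, summarisation and scaling are not given in the sources used here. If arrays were scaled to a common distribution, a shift of most transcripts would not be seen. Median intensities were 25.7, 26.1 and 26.1 with siRNA 1, siRNA 2 and the control.

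Values below the median of all values, 26.0, were raised to it and log2 taken. Each gene was read from the brightest, by mean log2 intensity, of the probe sets that the platform annotation gives to it alone; all 45 member symbols matched RefSeq by gene identifier. Differences were counted at 1.5-fold, with 1.2-fold and 2-fold, other floors, probe set rules and scalings as alternatives. Counts and medians of the members were set beside those of all 11286 measured genes. With 1 array per group there was no test, and precision is limited by the number of arrays. The members and lists were chosen with earlier results of these data known. All intensities are given for members past 1.5-fold, the extremes of each role and the cutting subunits; promoter motifs were chosen after the values were seen. Python 3.11.15, numpy 2.4.6, pandas 2.3.3 and matplotlib 3.10.9 were used.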

Additional observations from a re-analysis of the deposited data

Results flagged for a closer look

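PSME1 was singled out because its difference from the control ran in opposite directions with the siRNAs, by at least 1.2-fold each way. It was -0.31 on the log2 scale with siRNA 1 and 0.53 with siRNA 2. The gap between the siRNA libraries, -0.84, was not tested, since each group held 1 array.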

How the results depend on the processing

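Each group held 1 array, so these are shifts of values and not of tests, and a value counts as moved past a log2 of 0.1, and a count past 1.5 times. No paired analysis was possible because the groups share only 1 replicate number and hold 1 array each. Of 207 medians recomputed, 191 stayed within that range and 13 moved. The other 3 changed sign from a main value of at least 0.1 in size. Smaller medians that changed sign, such as that of the ATPases with siRNA 1 below, were counted as moved or as within the range. Of 777 single-gene values, 39 moved, 30 of them with the mean of all probe sets, and 7 of the 39 changed sign. These were PSMA1 (0.04), PSMC2 (0.01) with siRNA 1, PSMD10 (-0.07) and PSME4 (-0.02) with siRNA 2, and PSMA1 (0.11) and PSMD11 (0.11) between the siRNAs, all with that mean, and PSMC2 (0.23) with siRNA 1 with plain probe sets. At 1.2-fold, 14 members were lower and 1 higher with siRNA 1, 10 lower and 2 higher with siRNA 2, and 3 lower and 2 higher between siRNA 1 and siRNA 2. At 2-fold, 0 were lower in each of the 3. With the mean of all probe sets, the siRNA 2 medians were -0.53 for the immunoproteasome, -0.36 for the 20S assembly factors and -0.018 for the activators, and the median between the siRNAs was -0.12 for the 19S assembly factors. Without a floor the immunoproteasome medians were -0.52 with siRNA 1 and -0.44 with siRNA 2. Plain probe sets left 8 members, 1 or 2 in each affected role. With siRNA 1 the medians were then -0.52 for the constitutive beta subunits, -0.25 for the immunoproteasome, 0.23 for the ATPases and 0.59 for the activators, with 2 members lower and 1 higher by 1.5-fold, beside 4.84% and 8.41% of the 3412 genes measured this way. With siRNA 2 they were -0.38, -0.067 and -0.25 for the first 3 of these roles and 0.23 for the 19S assembly factors, with 0 members lower by 1.5-fold, beside 5.39%. Between the siRNAs they were 0.48 for the ATPases and 0.46 for the activators, with 0 members lower by 1.5-fold, beside 4.04%. These values rest on fewer genes; the cause of the other shifts was not tested. With a floor at the 75th percentile PSMB9 was no longer measured, and 4 members were lower by 1.5-fold with siRNA 1 and 2 with siRNA 2; no median moved past 0.1. A floor at the 25th percentile, quantile normalization and centring moved no median past 0.1 and left the 1.5-fold counts at 5 with siRNA 1 and 3 with siRNA 2.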
